A study of Mus musculus with 7 samples.

Results

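The genes described here are 9 Toll-like receptors and Myd88, the adaptor that most of them share, in microglia sorted from the mouse cortex. They were taken by gene symbol: Tlr1, Tlr2, Tlr3, Tlr4, Tlr6, Tlr7, Tlr8, Tlr9, Tlr13 and Myd88 are 10 of the 23420 genes in the deposited count table. RNA was sequenced from 4 mice labelled MG-Srgap2f/f, of the genotype Tmem119creErt2+ Srgap2f/f (cKO below), and from 3 Srgap2f/f mice labelled WT. All 7 mice carried the floxed alleles and were given tamoxifen by gavage, 2 doses of 75 ug/g at postnatal days 8 and 10, and cortices were taken at postnatal day 30. Cells were sorted as CD11b+, CD45low and CX3CR1+, about 100000 per cortex, and libraries were made from poly(A) RNA with an RNA integrity number above 8.5. The recombinase is driven from Tmem119, a gene of microglia, and was carried by the cKO mice only, so the recombinase and the loss of Srgap2 cannot be told apart. Each library has its own mouse number, so tests measure the spread between mice.

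Toll-like receptors are membrane proteins that bind microbial or damage-derived molecules with a leucine-rich ectodomain and signal through a cytoplasmic TIR domain. Those at the cell surface (Tlr1, Tlr2, Tlr4, Tlr6) mostly recognise lipids and lipoproteins, and those in endosomes (Tlr3, Tlr7, Tlr8, Tlr9, Tlr13) recognise nucleic acids. MyD88 couples every member but TLR3 to IRAK kinases and then to NF-kappaB, and microglia are the main cells of the brain parenchyma that carry these receptors.

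Tlr1 and Tlr6 come first as a pair, because parts of their transcripts cannot be told apart by short reads. Both genes lie next to each other on chromosome 5, between Klf3 and Fam114a1, and their coding sequences (GENCODE M21 transcripts) are 2385 and 2418 bases long. They share 9 exact runs of at least 30 bases, which together make up 873 bases, 36.6% of the Tlr1 and 36.1% of the Tlr6 coding sequence. No other pair of the 10 genes shares such a run. The longest is shown with the 60 bases that follow it in each gene, in which capitals mark the 2 bases that differ. It spans coding positions 1468 to 1696 of Tlr1 and 1507 to 1735 of Tlr6, counted from the first base of the start codon.
Tlr1 and Tlr6, shared run of 229 bases: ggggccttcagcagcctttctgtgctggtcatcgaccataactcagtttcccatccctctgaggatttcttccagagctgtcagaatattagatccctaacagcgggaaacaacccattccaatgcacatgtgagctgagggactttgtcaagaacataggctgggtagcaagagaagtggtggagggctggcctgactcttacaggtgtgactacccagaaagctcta
Tlr1, next 60 bases: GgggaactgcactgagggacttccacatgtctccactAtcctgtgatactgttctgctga
Tlr6, next 60 bases: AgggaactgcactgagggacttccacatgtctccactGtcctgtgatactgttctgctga
How reads from such runs were assigned is not given in the sources used here, so the values of Tlr1 and of Tlr6 are uncertain one by one, and their summed counts are given too.

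Levels are CPM, counts brought to a common library total, scaled by the TMM factors of edgeR. Differences are log2 fold changes of cKO against WT from edgeR's quasi-likelihood test, with p adjusted over the 11991 genes tested and a threshold of 0.05. Total counts ran from 27016173 to 35707304 per library. Srgap2, the deleted gene, averaged 272 ± 55.0 CPM over the 4 cKO libraries (SD) against 788 ± 165 CPM over the 3 WT libraries, with a log2 fold change of -1.53 (SE 0.17, adjusted p = 0.0053) and no overlap between the groups. Of all genes, 43 passed, 0.359% of those tested, of which 5 were lower in cKO (0.0417%). The groups did not overlap for 16.1% of genes, with cKO the lower group for 7.2%, and 16.5% had an unadjusted p under 0.05. Xist, the RNA of the inactive X chromosome, was above 69 CPM in cKO replicates 2 and 4 and WT replicates 2 and 3 and below 1 CPM in the other 3 libraries, so Xist-high and Xist-low mice are unevenly spread over the groups.

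None of the 10 genes passed the threshold, but 9 of the 10 log2 fold changes were below 0, with Tlr7 at only -0.0046. Over all genes tested, 6223 of 11991 were below 0. By edgeR, 5 of the 10 had an unadjusted p under 0.05, namely Tlr1, Tlr2, Tlr6, Tlr9 and Tlr13, and in all 5 the highest cKO library lay below the lowest WT library, with cKO means at 76.4% to 80.6% of the WT mean. Limma-voom called 0 of the 10 and DESeq2 0 of the 9 to which it gave an adjusted p. The median over the 10 genes was -0.27, against -0.01 over all genes tested. Tlr4, Tlr3, Tlr7, Tlr8 and Myd88 had groups that overlapped. Lower RNA per cell and a lower share of receptor-bearing cells cannot be told apart in these bulk samples.

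**Figure D1:**
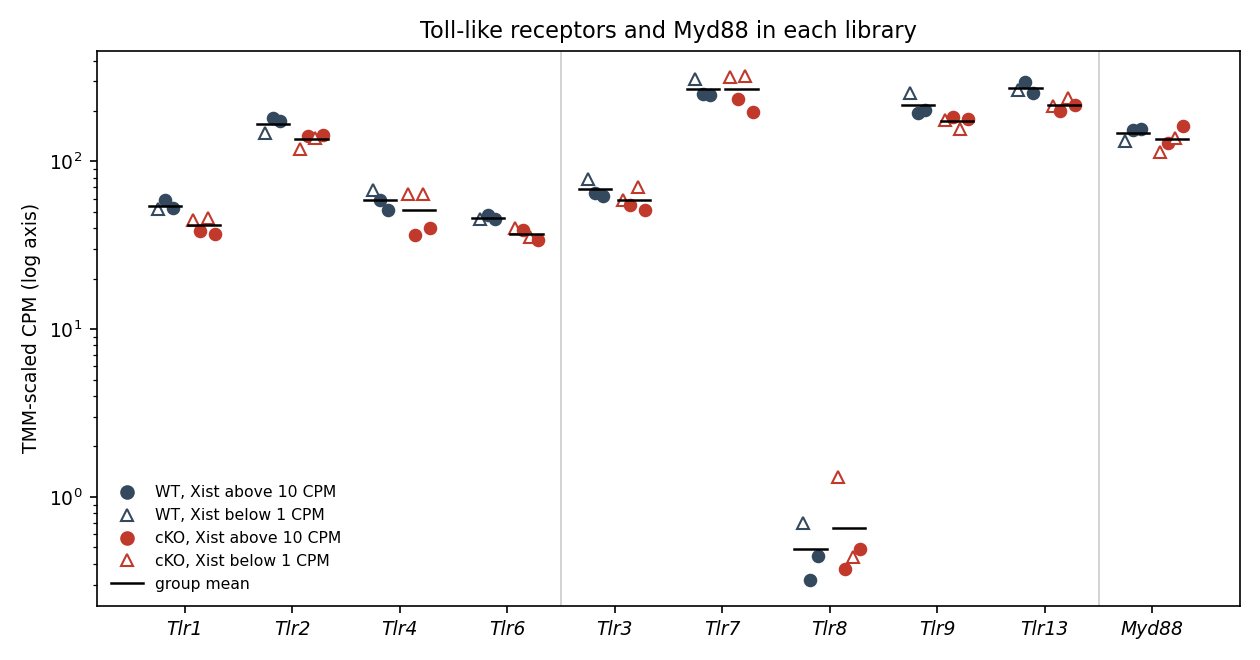
TMM-scaled CPM of each gene in each library, on a log axis; vertical lines separate surface receptors, endosomal receptors and Myd88, horizontal bars are group means, and filled circles and open triangles are libraries high and low in Xist. Tlr1, Tlr2, Tlr6, Tlr9 and Tlr13 have every cKO point below every WT point, while Tlr4 and Tlr7 in cKO divide into 2 high and 2 low libraries.

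Among the surface receptors, Tlr1 encodes the partner of TLR2 in binding triacylated lipoproteins. In cKO replicates 1 to 4 it was at 44.9, 38.5, 46.3 and 37.1 CPM, and in WT replicates 1 to 3 at 51.9, 58.7 and 53.1 CPM. All 4 cKO libraries lay below the lowest WT library, and the gap between the groups was 46.3 to 51.9 CPM. The cKO-to-WT difference was -0.39 on the log2 scale (SE 0.12, 95% interval -0.65 to -0.13, adjusted p = 0.15), the lowest p among the 10 genes. Tlr6 encodes the other partner of TLR2, for diacylated lipoproteins. It was at 39.9, 39.1, 35.6 and 33.9 CPM in cKO, against 45.6, 48.1 and 45.2 CPM in WT. The WT libraries were within 3 CPM of each other and all above the cKO libraries, with a log2 fold change of -0.32 (SE 0.11, 95% interval -0.55 to -0.09, adjusted p = 0.17).

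With the counts of Tlr1 and Tlr6 summed, the pair was at 84.8, 77.7, 81.9 and 71.0 CPM in cKO, against 97.5, 107 and 98.3 CPM in WT. The summed level also had groups that did not overlap, with a log2 fold change of -0.36 (SE 0.11, adjusted p = 0.15 by edgeR). The sum does not depend on how reads counted for only 1 gene are divided between the pair. It does depend on whether reads of the shared runs were dropped or counted for both genes, which is not given. The ratio of Tlr1 to Tlr6 CPM was 0.985 to 1.30 in cKO and 1.14 to 1.22 in WT.

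Tlr2 encodes the receptor that pairs with TLR1 or TLR6 and was the most abundant of the surface receptors per transcript length. It was at 119, 143, 138 and 143 CPM in cKO, against 147, 182 and 175 CPM in WT. The groups did not overlap, but cKO replicate 4, the highest of its group, and WT replicate 1 were within 4 CPM of each other. This gave a log2 fold change of -0.31 (SE 0.11, 95% interval -0.56 to -0.06, adjusted p = 0.21). Tlr4, the receptor for lipopolysaccharide, was at 63.8, 36.6, 64.1 and 39.9 CPM in cKO, against 67.6, 59.1 and 51.1 CPM in WT. Replicates 1 and 3 of cKO lay within the WT range and replicates 2 and 4 below it, so the SD in cKO was 14.9 CPM, 29.2% of the mean. Its log2 fold change of -0.21 had an interval from -0.66 to 0.23 (SE 0.20, adjusted p = 0.65). That value rested on single libraries: leaving out cKO replicate 2 gave -0.08, leaving out cKO replicate 4 or WT replicate 1 gave -0.11, and with cKO replicate 3 or 1 left out it was -0.34 or -0.35.

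Among the endosomal receptors, Tlr13 encodes the mouse receptor for bacterial 23S ribosomal RNA. It was at 215, 199, 238 and 216 CPM in cKO, against 267, 297 and 255 CPM in WT. Every cKO library was below every WT library, and the mean in cKO was 79.6% of that in WT. This gave a log2 fold change of -0.33 (SE 0.11, 95% interval -0.56 to -0.10, adjusted p = 0.16). Tlr9, the receptor for unmethylated CpG DNA, was at 176, 185, 157 and 180 CPM in cKO, against 255, 193 and 203 CPM in WT. The groups did not overlap, with WT replicate 1 well above the other WT libraries, and the log2 fold change was -0.32 (SE 0.12, 95% interval -0.58 to -0.06, adjusted p = 0.21). Without WT replicate 1 the log2 fold change of Tlr9 was -0.19.

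Tlr7, the receptor for single-stranded RNA, had nearly equal means, 269.5 ± 62.8 CPM over the 4 cKO libraries (SD) and 270.4 ± 33.5 CPM over the 3 WT libraries. It was at 321, 235, 324 and 198 CPM in cKO, against 309, 253 and 250 CPM in WT. Replicates 1 and 3 of cKO were above all WT libraries and replicates 2 and 4 below all of them, for a log2 fold change of -0.0046 (SE 0.17, adjusted p = 0.99). Its interval ran from -0.38 to 0.37, so a difference as large as that of Tlr13 is inside it. Tlr3, which binds double-stranded RNA and signals through TRIF (Ticam1) instead of MyD88, was at 59.0, 55.4, 70.1 and 51.1 CPM in cKO, against 78.3, 65.3 and 62.3 CPM in WT. Only cKO replicate 3 reached into the WT range, and the difference of -0.22 did not pass (SE 0.13, 95% interval -0.51 to 0.07, adjusted p = 0.44). Without WT replicate 1 the value of Tlr3 was -0.12.

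Tlr8, which lies beside Tlr7 on the X chromosome, was barely detected. It had 38, 11, 12 and 16 counts in cKO replicates 1 to 4 and 19, 10 and 16 counts in WT replicates 1 to 3. These are 0.32 to 1.32 CPM, and cKO replicate 1 alone gave the higher mean in cKO. The log2 fold change of 0.44 (SE 0.52, adjusted p = 0.73) had an interval from -0.70 to 1.57, and without cKO replicate 1 it was -0.16. A difference of the size of those of the other receptors was not detectable at this depth.

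Myd88 was at 115, 129, 138 and 162 CPM in cKO, against 133, 154 and 155 CPM in WT. The ranges overlapped, with both the lowest and the highest library in cKO, and the mean was 92.1% of that in WT. Its log2 fold change was -0.12 (SE 0.13, 95% interval -0.40 to 0.16, adjusted p = 0.70). Leaving out cKO replicate 1 gave -0.06 and leaving out cKO replicate 4 gave -0.22, and with WT replicate 3 or 1 left out the value was -0.08 or -0.19. In the reference annotation Myd88 overlaps Acaa1a, a peroxisomal thiolase gene on the opposite strand with 1795 to 3116 counts per library, and Tlr3 overlaps an antisense gene. The sources used here do not give the strand setting of the counting, so reads in these overlaps are uncertain.

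**Figure D2:**
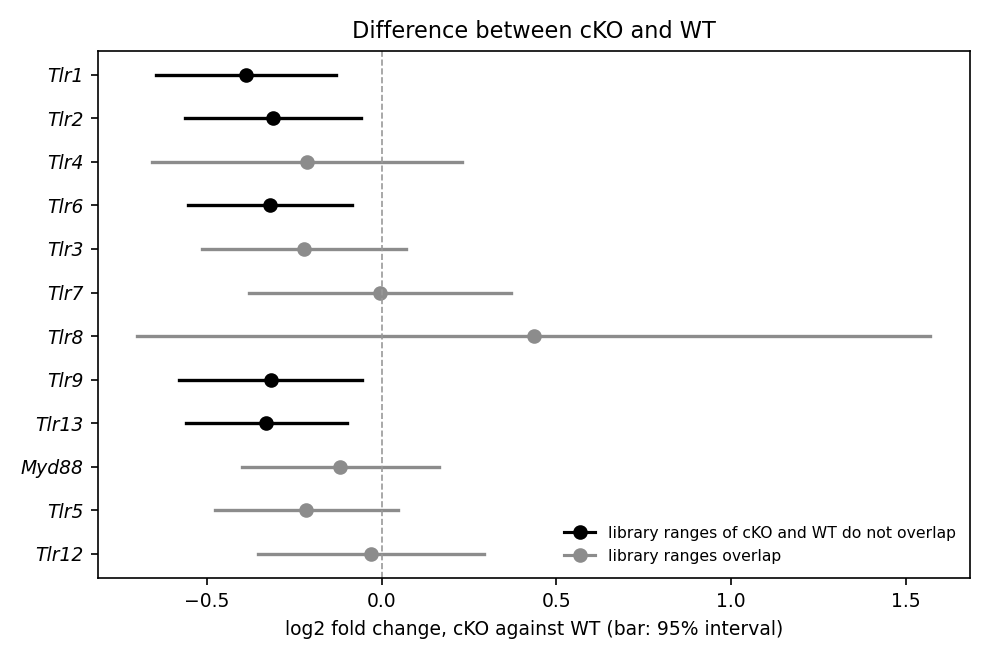
Log2 fold change of cKO against WT (points) with its 95% interval (bars) for the 10 genes and for Tlr5 and Tlr12, in which black marks genes whose library ranges do not overlap. The 5 black genes lie between -0.39 and -0.31, and the interval of Tlr8 is the widest.

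Per kilobase of transcript (the median length of the protein-coding transcripts of each gene in GENCODE M21), Myd88 was the most abundant of the 10 in WT microglia, at 126 ± 10.9 CPM per kb (SD, n = 3). Tlr7 at 78.0 ± 9.65, Tlr13 at 67.2 ± 5.35, Tlr9 at 62.4 ± 9.49 and Tlr2 at 55.8 ± 6.13 CPM per kb formed an upper group of receptors. Each of these 4 overlapped its neighbour in the order, so the order of neighbours is not resolved. The lowest WT library of Tlr7, at 72.0, and of Tlr13, at 62.8, lay above the highest of Tlr2, at 60.4 CPM per kb. By these median lengths Tlr3 followed at 28.4 ± 3.52 CPM per kb, without overlap with Tlr2 above it or Tlr6 below it. Tlr6 at 22.5 ± 0.76, Tlr4 at 19.9 ± 2.78 and Tlr1 at 18.8 ± 1.25 CPM per kb overlapped each other in turn, and Tlr8 was last at 0.154 ± 0.061 CPM per kb. In cKO the 10 genes stood in the same order, with Myd88 at 116 ± 17.0 CPM per kb (SD, n = 4). The median lengths of Tlr3 (2417 bases) and Tlr6 (2061.5 bases) were shorter than the coding sequences of their longest transcripts, 2715 and 2418 bases. The levels of Tlr3 and Tlr6 per kilobase may therefore be too high. With the longest transcript as the length, Tlr1, Tlr3 and Tlr6 changed places and Myd88, at 75.3 CPM per kb in WT, overlapped Tlr7 at 69.4. Tlr1 was then at 18.0 CPM per kb in WT, Tlr3 at 15.6, Tlr4 at 14.5 and Tlr6 at 12.6, each overlapping its neighbour in that order.

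**Figure D3:**
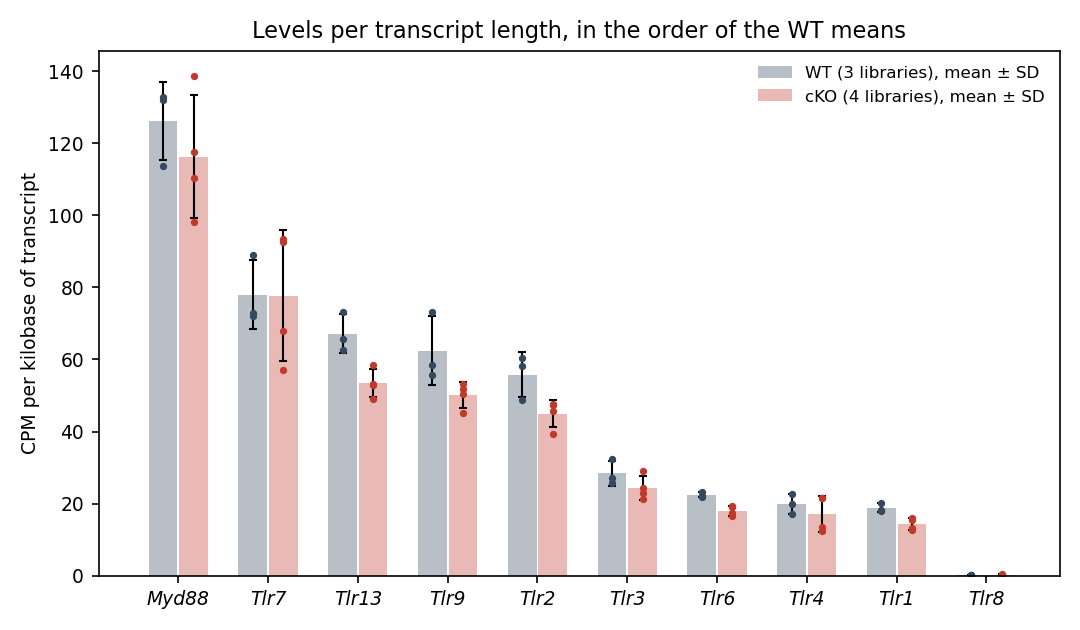
CPM per kilobase of transcript in WT and cKO, in the order of the WT means; bars are means, error bars are SD and points are libraries. Myd88 stands highest, Tlr7, Tlr13, Tlr9 and Tlr2 form an upper group of receptors, and Tlr8 is close to 0 in all libraries.

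Summed per kilobase, the 9 receptors came to 317, 285, 327 and 274 in cKO and to 372, 353 and 335 in WT. The 4 cKO sums were all below the 3 WT sums. The surface receptors made up 30.2% to 33.0% of the sum in cKO and 30.0% to 35.1% in WT, so the balance between surface and endosomal receptors overlapped between the groups.

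Over the 7 libraries, log2 CPM of Tlr1 correlated with that of Tlr13 at Pearson r = 0.93 and with that of Tlr6 at 0.86, and Tlr4 with Tlr7 at 0.86. Tlr7 and Myd88 ran opposite, at r = -0.69. These describe 7 libraries that also differ in genotype, Xist and base composition. How reads of the runs shared by Tlr1 and Tlr6 were assigned is not given, and their part in the correlation of that pair was not tested. Among the 10206 expressed genes compared, those most like Myd88 over the libraries were Atp6v0b (r = 0.99), Spryd3 and Tor4a, and those most like Tlr1 were Rab3gap1 (r = 0.98), Zfp641 and Nfkbiz.

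Tlr4, Tlr7, Tlr3 and Tlr2 divided with the Xist level within each group. In the Xist-high libraries (2 cKO, 2 WT), mean Tlr4 was 38.2 CPM in cKO against 55.1 CPM in WT. In the Xist-low libraries (2 cKO, 1 WT) it was 63.9 and 67.6 CPM. Mean Tlr7 was 217 against 251 CPM in the Xist-high and 322 against 309 CPM in the Xist-low libraries. Mean Tlr3 was 53.3 against 63.8 CPM in the Xist-high and 64.5 against 78.3 CPM in the Xist-low libraries. For Tlr2 the means were 143 against 179 and 128 against 147 CPM. Tlr4, Tlr7 and Tlr3 were thus higher in Xist-low libraries of either group, and Tlr2 was lower in them. The cKO mean of Tlr7 was below the WT mean among the Xist-high libraries and above it among the Xist-low ones. For the 5 genes with groups that did not overlap, the direction within any part of the libraries is fixed, so only sizes are given. Tlr1 was at 37.8 against 55.9 CPM in the Xist-high and 45.6 against 51.9 CPM in the Xist-low libraries, and Tlr13 at 208 against 276 and 227 against 267 CPM. Tlr9 differed most among the Xist-low libraries, at 166 against 255 CPM, and least among the Xist-high, at 182 against 198 CPM. Across genes, the rank correlation of GC content with a gene's deviation in a library from its mean moved along with Xist in cKO, at -0.51, 0.15, -0.40 and 0.43 in replicates 1 to 4, and its part in the result was not separated from that of Xist. With Xist as a covariate, 2 members passed, both lower in cKO: Tlr1 (log2 fold change -0.44, adjusted p = 0.022) and Tlr4 (-0.43, adjusted p = 0.035). In that fit 8.81% of all genes passed. By run of mouse numbers (the 1058 to 1062 and the 1101 to 1109 mice), mean Tlr4 was 50.2 in cKO against 67.6 CPM in WT in the first run and 52.0 against 55.1 CPM in the second, and mean Tlr7 was 278 against 309 and 261 against 251 CPM. With GC and length offsets per library, under which 2.8% of genes passed, 2 members also passed, namely Tlr1 (-0.41, adjusted p = 0.039) and Tlr6 (-0.36, adjusted p = 0.048).

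**Figure D4:**
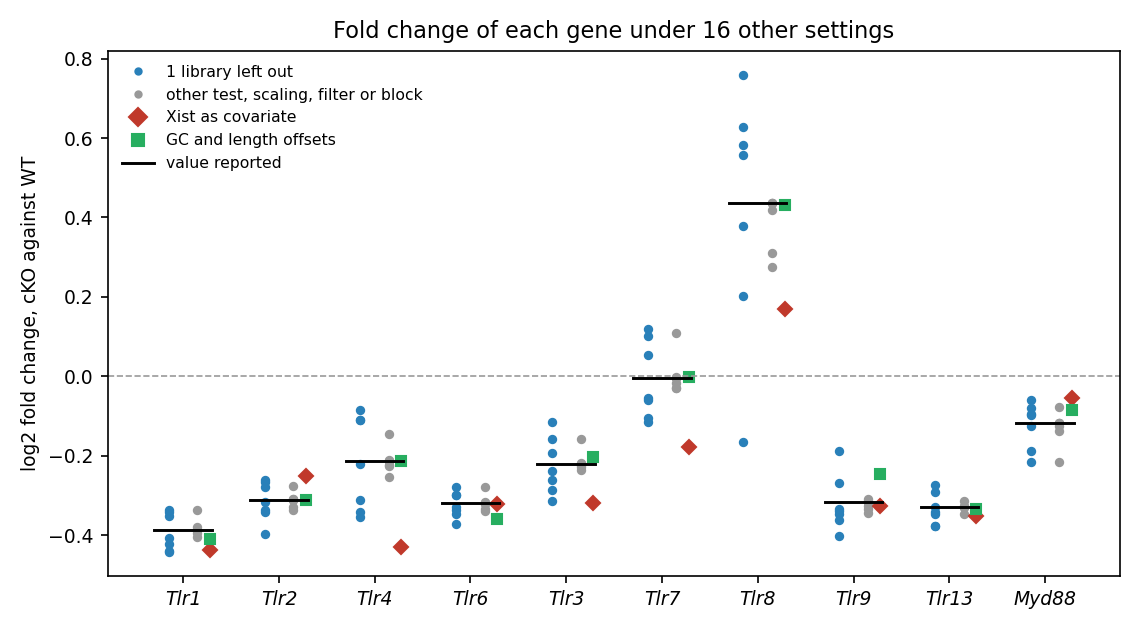
Log2 fold change of each gene as reported (black line) and under 16 other settings: 1 library left out (blue), other tests, scalings, filters or blocks (grey), Xist as a covariate (red) and GC and length offsets (green). Tlr1 runs from -0.44 to -0.34 and Tlr4 from -0.43 to -0.08, and Tlr7 and Tlr8 lie on both sides of 0.

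Promoter sequences were read for the members because several had lower levels in cKO together. RefSeq windows of 300 bases around the start (250 before to 50 after, GRCm38.p6) were found for 8 of the 10 genes, not for Tlr4 and Tlr7. The core site of PU.1, the main myeloid transcription factor (GAGGAA, both strands), was in 4 of their 10 windows, those of Tlr13, Tlr9, Tlr8 and 1 of the 2 of Tlr1, against 28.3% of all 32851 windows. Of the 5 genes with groups that did not overlap, Tlr1, Tlr9 and Tlr13 had the core and Tlr2 and Tlr6 did not. Tlr8, whose groups overlapped, had it too. A match of letters is not a bound site, and a part of PU.1 in the difference was not tested. The 150 bases before the start are shown for the endosomal receptors among the 5 genes with groups that did not overlap, with the core in capitals.
Tlr13, chrX:106143125-106143274, plus strand: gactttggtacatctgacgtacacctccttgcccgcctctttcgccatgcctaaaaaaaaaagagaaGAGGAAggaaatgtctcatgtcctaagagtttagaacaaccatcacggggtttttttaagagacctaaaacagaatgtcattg
Tlr9, chr9:106222448-106222597, plus strand: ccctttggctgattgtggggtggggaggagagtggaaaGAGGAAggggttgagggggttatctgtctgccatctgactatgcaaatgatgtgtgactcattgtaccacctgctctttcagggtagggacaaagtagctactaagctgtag
A kappaB-like pattern (GGGNNNNNCC, both strands) was in 3 of the 10 windows, those of Tlr2, Tlr3 and 1 of the 2 of Tlr6, against 50.8% of all windows. A pattern of interferon regulatory factors (GAAANNGAAA, both strands) was in 2 of the 10, those of Myd88 and the other window of Tlr6, against 3.44%, with 2 matches in Tlr6 that overlap each other.

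No gene of the other pathway lists passed the threshold in either direction. Of the remaining Toll-like receptors, Tlr5, the flagellin receptor, had a log2 fold change of -0.22 (SE 0.12, adjusted p = 0.39) and Tlr12 one of -0.03, while Tlr11 had at most 8 counts and was not tested. Among 15 co-receptors and trafficking proteins the median was 0.00. Cd14, which hands lipopolysaccharide to TLR4, was at 442 to 568 CPM in cKO and 587 to 667 CPM in WT (log2 fold change -0.29, adjusted p = 0.24). Ly86, which forms a complex with the TLR4 homologue CD180, lay the other way, at 724 to 854 CPM in cKO and 561 to 687 CPM in WT (0.30, adjusted p = 0.21). Unc93b1, the chaperone that carries endosomal receptors out of the endoplasmic reticulum, was at 1769 to 2373 CPM in cKO against 2249 to 2437 CPM in WT (-0.19, adjusted p = 0.47), and Slc15a3, an endolysosomal histidine transporter, had a value of -0.32 (adjusted p = 0.34).

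Of 26 adaptors and proximal kinases, 4 were higher and 2 lower at an unadjusted p under 0.05 (median -0.04). By the same edgeR test, 1157 of all 11991 genes were higher and 824 lower at that level. Irak1, a kinase recruited by MyD88, was at 104.9 to 120.6 CPM in cKO and 79.9 to 99.7 CPM in WT (log2 fold change 0.34, adjusted p = 0.17). Irak4, the first kinase of that complex, was at 46.3 to 50.6 CPM in cKO and 39.0 to 42.7 CPM in WT (0.25, adjusted p = 0.24). Ube2n, the E2 enzyme of K63-linked ubiquitin chains, had a value of 0.36 (adjusted p = 0.17). In these 3 genes the groups did not overlap and cKO was the higher. In Ikbke, below 1 CPM in all libraries, they did not overlap either and cKO was the lower (-1.40, adjusted p = 0.22).

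Among 15 transcription factors the median was -0.10, with Irf1 at -0.52 (adjusted p = 0.14), Irf3 at -0.25 (adjusted p = 0.34), Jun at 0.32 (adjusted p = 0.16) and Atf2 at 0.22 (adjusted p = 0.55). The 20 negative regulators tested had a median of -0.01. Tnfaip3, which encodes the ubiquitin-editing enzyme A20, was at 51.1 to 67.7 CPM in cKO and 74.0 to 86.6 CPM in WT (-0.42, adjusted p = 0.16). Socs1 was at -0.50 (adjusted p = 0.27), Il1rl1, the IL-33 receptor, at 0.76 (adjusted p = 0.15) and Lgals9 at 0.33 (adjusted p = 0.31).

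The 15 induced targets tested had values on both sides, 4 higher and 3 lower at an unadjusted p under 0.05, with a median of 0.08. Of all genes tested by edgeR, 16.5% were at that level in either direction. Sod2, the mitochondrial superoxide dismutase, was at 34.7 to 40.9 CPM in cKO and 26.2 to 29.8 CPM in WT (0.42, adjusted p = 0.13). Il1b was at 2.01 to 3.34 CPM in cKO and 1.45 to 1.97 CPM in WT (0.70, adjusted p = 0.21), a low level in both groups. Zfp36, which destabilises cytokine mRNAs, had a value of -0.35 (adjusted p = 0.17) and Marcksl1 one of 0.43 (adjusted p = 0.17). Of the 4 tested IL-1 family receptors, which also signal through MyD88, Il18rap had the largest value at 1.51 (adjusted p = 0.14), from 1.29 to 2.33 CPM in cKO and 0.219 to 1.02 CPM in WT. That value rested on 6 to 64 counts per library, and Il18r1, also listed, had at most 3 counts and was not tested. Il1rap was at -0.25, Il1r1 at -0.34 and Il1rl2 at -0.10 (adjusted p from 0.56 to 0.81).

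**Figure D5:**
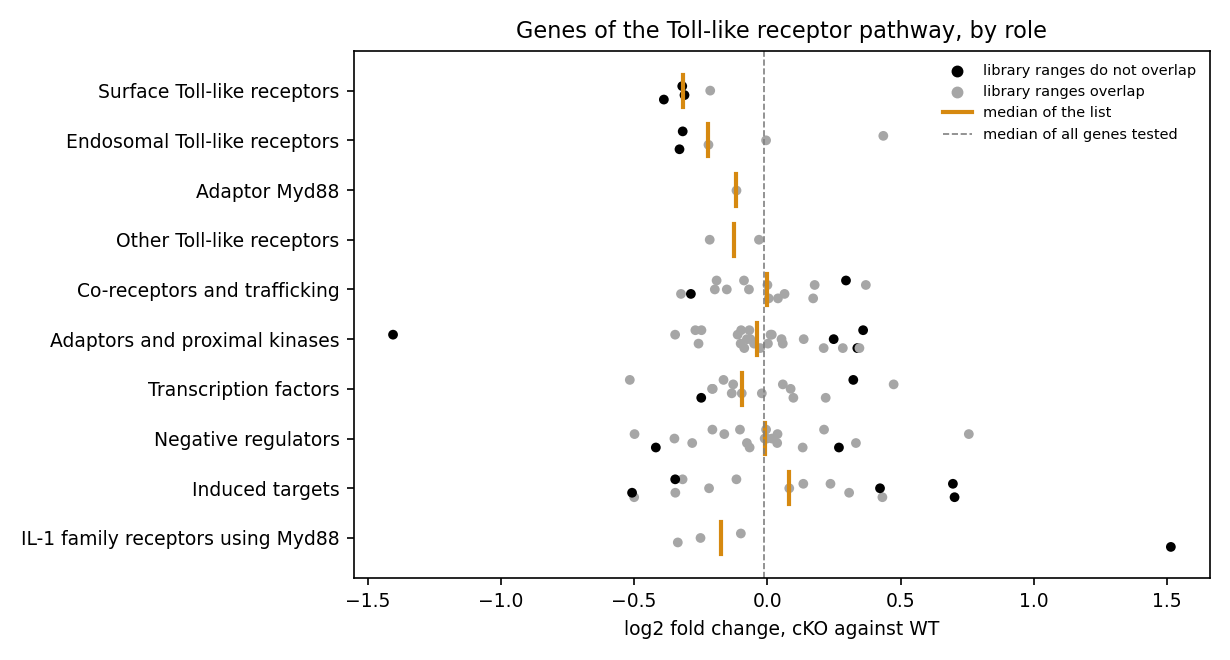
Log2 fold change of cKO against WT for each tested gene of the pathway, grouped by role; black points have library ranges that do not overlap, orange bars are list medians and the dashed line is the median of all genes tested. The surface receptors all lie below 0, with a median of -0.32, while the lists of kinases, regulators and targets spread to both sides.

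The sorted cells carried the microglial markers at high levels. The 10 markers summed to 50190 to 57666 CPM in cKO and 57538 to 60353 CPM in WT. Tmem119 fell (log2 fold change -0.82, SE 0.15, adjusted p = 0.046), whereas P2ry12 (0.09, adjusted p = 0.84) and Cx3cr1 (-0.22, adjusted p = 0.33) did not pass. The groups did not overlap for 2 of the 10 markers, Tmem119 and Cx3cr1, with cKO the lower in both. Cx3cr1 was at 6069 to 6846 CPM in cKO and 6975 to 7981 CPM in WT. Tmem119 is part of the marker sum, with means of 3707 CPM in cKO and 6558 CPM in WT. It also drives the recombinase, carried by the cKO mice only, so its fall cannot be told apart from the recombinase allele. Markers of border-associated macrophages, which also express Toll-like receptors, summed to 1169 to 1431 CPM in cKO and 1081 to 1342 CPM in WT. Stab1 alone made up most of that sum, with means of 1185 CPM in cKO and 1102 CPM in WT. Mrc1 came next, at means of 52.5 and 48.5 CPM, and the others were lower still. Markers of monocytes and neutrophils summed to 8.30 to 10.3 and 5.96 to 10.6 CPM, with Ltf and Retnlg at 0 in all libraries, and those of lymphocytes to at most 0.279 CPM. Astrocyte markers summed to 85.0 to 137 CPM in cKO and 131 to 137 CPM in WT, oligodendrocyte markers to 93.8 to 145 and 109 to 120 CPM, and neuron markers to at most 3.49 CPM. Endothelial and mural markers summed to 52.9 to 72.4 and 67.4 to 75.8 CPM, with Cldn5, Rgs5 and Kcnj8 at 0. Most of the astrocyte sum was Slc1a3, with means of 92.4 CPM in cKO and 124.8 CPM in WT. Most of the endothelial sum was Pecam1, with means of 58.7 and 69.6 CPM. The 14 genes induced by cell dissociation summed to 669 to 785 CPM in cKO and 803 to 878 CPM in WT, so this sum, like that of the receptors, was lower in every cKO library. None of its 13 tested members passed the threshold, and 8 of the 13 had a log2 fold change above 0 (median 0.29). The groups did not overlap for 6 of the 13, against 16.1% of all genes. In 4 of these 6 cKO was the lower, among them the abundant Btg2, Junb and Zfp36. Jun (0.32) and Egr1 (0.62) were higher in cKO without overlap. Btg2, Junb and Egr1 were chosen for naming after their values were seen. The part of these genes in the receptor difference was not tested.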

How the data were processed

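RNA from sorted cortical microglia was sequenced in 4 cKO and 3 WT mice, grouped by the genotype in the labels. The authors deposited 1 table of whole-number counts per gene symbol, not normalized. DRAGEN and the GRCm39 build were used, per the submitters' processing notes; the sources used here give no version, annotation, counting rule or strand setting. From these counts, genes were filtered with filterByExpr (least count 10, least total 15), scaled by TMM and tested with the robust quasi-likelihood F test of edgeR 4.0.16 (limma 3.58.1, R 4.3.3) without covariates, with Benjamini-Hochberg adjustment over 11991 genes. An SE is the log2 fold change divided by the square root of F, and intervals are 95%. Log2 CPM used a prior count of 2. The script was tested on simulated data. For Srgap2 a two-sided exact permutation test over 35 divisions gave p = 0.029, the smallest possible. Lengths, GC content and coding sequences came from GENCODE M21 (GRCm38), promoters from RefSeq (GRCm38.p6).

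The members and gene lists were chosen with earlier results of these data known. Named are all 10 members, Srgap2, up to 4 genes of each pathway list (past the threshold, otherwise with the smallest p), 3 microglia markers and the 3 genes most like Myd88 and Tlr1. The genes that lead the macrophage, astrocyte and endothelial marker sums, and Il18r1, were named after their values were seen. Alternatives were RLE factors, other filters, limma-voom, DESeq2 1.42.0, a replicate block, a block for the mouse-number run, an Xist covariate, GC and length offsets (loess span 0.3, values for 94.2% of genes) and leaving out each library. The sum of Tlr1 and Tlr6 was added after seeing the data.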

Additional observations from a re-analysis of the deposited data

Results flagged for a closer look

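Tlr8 in cKO replicate 1 was at 1.32 CPM (38 counts), against 0.37, 0.44 and 0.49 CPM (11, 12 and 16 counts) in the other cKO libraries. It lay apart from them by 0.875 of the group's whole range, above Dixon's 95% critical value for 4 samples. Of the 10 genes checked in the cKO group this was the only such value, and chance alone gives about 1 in 20 groups.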

How the results depend on the processing

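The number of genes past the threshold in the whole table, 43, was 89 without the low-count filter, 170 with a block for the mouse-number run, 1056 with the Xist covariate, 336 with GC and length offsets and 538 by DESeq2. Leaving out 1 library gave 4 (without WT replicate 2) to 142 (without cKO replicate 1), and fewer libraries also mean less power. With the replicate block it was 288, with 0 members called. The labels do not say that same-numbered mice are pairs. Correlations of same-numbered deviations were 0.39, 0.069 and -0.17, and WT replicate 3 with cKO replicate 4 reached 0.38. Because the libraries also divide by Xist, these correlations cannot show or exclude a pairing. The members past the threshold were 0 in 14 of 16 settings, 2 with the Xist covariate and 2 with GC and length offsets. Leave-one-out fits called 0 members each. Over the 16 settings the log2 fold change of Tlr1 ran from -0.44 to -0.34, with adjusted p from 0.022 to 0.45. Tlr7 turned positive with the replicate block (0.11) and without cKO replicate 2 (0.05), cKO replicate 4 (0.12) or WT replicate 1 (0.10), and Tlr8 negative without cKO replicate 1 (-0.16); with 1 library left out they ranged from -0.12 to 0.12 and from -0.16 to 0.76. The cause was not tested. Of the 10 ranks per kilobase, 6 (without WT replicate 1) to 10 were kept when 1 library was left out. Depth limits Tlr8, at 10 to 38 counts per library.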
